A study of Mus musculus with 24 samples.

Results

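Lipid handling was described through 10 genes in sorted mouse alveolar macrophages: Cd36, Lpl, Angptl4, Fabp4, Fabp5, Acsl1, Cpt1a, Dgat1, Dgat2 and Plin2. They were taken by symbol from a list of genes for the uptake, storage and use of surfactant lipids. The list was chosen with earlier results of these data known. All 10 were found among the 43430 gene IDs of the count table, and all 10 passed the filter on low counts, with a lowest value in any library of 34.2 CPM, the TMM-scaled count relative to library size. The cells were macrophages from C57BL/6J mice, sorted by flow cytometry into Siglec F-high and Siglec F-low fractions, and RNA was measured by poly(A)-selected RNA-seq.

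There were 6 groups of 4 libraries each, and no genetic modification was named for any of them. The young mice were 8 to 12 weeks old and the old mice more than 18 months old. Siglec F-high cells came from naive mice and from mice 28 days after asbestos, at both ages. Siglec F-low cells came from the asbestos mice only, at both ages. The asbestos type, dose and route are not given in the sources used here. The labels do not say whether replicates were separate animals or pools, so p-values measure the spread between these libraries, which may be partly technical.

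Alveolar macrophages take up and break down spent surfactant, a film rich in phospholipid, and therefore meet a steady load of fatty acids. CD36 on the cell surface and lipoprotein lipase outside the cell bring fatty acids in, and fatty acid-binding proteins carry them through the cytosol. Acyl-CoA synthetases activate them, after which they enter mitochondria through CPT1A or are joined into triglyceride by the DGAT enzymes and held in droplets coated with perilipins. The nuclear receptor PPARG, which alveolar macrophages need for their identity, is a known activator of several of these genes.

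Fabp4 and Fabp5 are paralogs in 1 cluster, and their mRNAs showed the widest range over the groups, so their coding sequences are shown first. Coding bases 1 to 150 of the longest GENCODE M21 coding transcript are given 5′ to 3′ from the start codon, with the longest run of bases that both share in capitals.

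Fabp4: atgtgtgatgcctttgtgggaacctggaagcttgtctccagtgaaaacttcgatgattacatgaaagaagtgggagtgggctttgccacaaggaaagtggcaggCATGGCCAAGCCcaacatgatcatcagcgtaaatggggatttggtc
Fabp5: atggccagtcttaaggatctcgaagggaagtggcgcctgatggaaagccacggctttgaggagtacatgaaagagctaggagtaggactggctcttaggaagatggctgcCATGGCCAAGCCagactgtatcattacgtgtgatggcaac

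The shared run was 12 bases long. Over an alignment of the whole coding sequences, of 408 columns, they matched in 243 (59.6%). Fabp5 lies on chromosome 3 at 10012548 to 10016607, plus strand, and Fabp4 at 10204088 to 10208576, minus strand (GRCm38, the assembly also called mm10), 187 kb apart. The paralogs Pmp2, Fabp9 and Fabp12 of the same cluster were at 0 or at most 0.177 CPM in any library.

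Promoters were in the RefSeq table (build GRCm38.p6) for Cd36, Plin2, Cpt1a and Acsl1, that is for 4 of the 10 genes. The table's windows of 250 bases before a transcript start of Cd36, which rose in Siglec F-low cells, and of Plin2, which was not called in any comparison with 24 or 22 libraries, are shown with the nuclear receptor half-site in capitals. The windows are chr5:17835897-17836146 and chr4:86670060-86670309, both written on the minus strand of the genome. The window of Cd36 lies inside the coordinates given for the gene below. That of Plin2 begins at the gene's highest coordinate, which is the start of this minus-strand gene.

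Cd36: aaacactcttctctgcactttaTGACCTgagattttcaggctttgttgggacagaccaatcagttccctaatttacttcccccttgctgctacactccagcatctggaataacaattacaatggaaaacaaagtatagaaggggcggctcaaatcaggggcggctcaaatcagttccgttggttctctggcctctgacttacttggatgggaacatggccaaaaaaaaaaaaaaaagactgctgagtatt
Plin2: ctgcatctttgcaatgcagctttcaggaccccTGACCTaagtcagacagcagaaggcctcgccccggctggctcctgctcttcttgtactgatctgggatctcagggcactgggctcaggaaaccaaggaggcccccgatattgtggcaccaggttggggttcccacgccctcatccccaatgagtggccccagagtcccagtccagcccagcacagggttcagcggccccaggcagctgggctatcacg

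The half-site, searched as AGGTCA on both strands (TGACCT on the other), was in 3 of the 5 windows of these genes, namely those of Cd36, Plin2 and Cpt1a. It was in 14% of the 32851 promoter windows of the same length. The full PPAR element, AGGTCANAGGTCA on both strands, which contains the half-site, was in 0 of the 5 windows and in 0.0335% of all. These matches describe letters in a window and not binding.

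A pair of libraries stood apart from the other 22, which held 13423080 to 18124526 counts. Replicate 3 of the young asbestos Siglec F-high group held 11889517 counts on 12528 genes, and log2 CPM correlated with the rest of its group at 0.865. Replicate 3 of the old asbestos Siglec F-high group held 3894699 counts, 35.6% of them on the single gene model Gm42418, with a correlation of 0.900. The other 22 ranged from 0.971 to 0.993. At least 1 of them enters 5 of the 7 comparisons, and all groups share the estimate of the spread, so tests were run on all 24 libraries and on the other 22, where these groups have 3 libraries each. The quasi-likelihood test of edgeR was run over all genes and its p-values were adjusted by Benjamini-Hochberg. A gene with an adjusted p under 0.05 is said to be called, and log2 fold changes are given with their standard error (SE).

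The sorted cells expressed the markers of alveolar macrophages: all 12 listed passed the filter, and their summed level was 16016 to 67316 CPM, most of it Chil3 at 10570.5 to 60670.1. Passing the filter was not particular to them. All 8 listed B cell markers and all 8 T cell markers passed it too, at sums of at most 289 and 102 CPM. Siglecf itself was at 312 to 614 CPM in the Siglec F-high libraries and at 148 to 294 in the Siglec F-low ones. In bulk samples, a lower share of cells that express a gene and less of its RNA per cell cannot be told apart.

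Per kilobase of merged exons, averaged over the 24 libraries, Plin2 had the highest level of the 10 genes at 401 CPM per kb. Lpl followed at 294 and Cd36 at 154, and Acsl1 was lowest at 9.61. The length matters for this order. Per kilobase of the longest coding transcript, a measure added after the values were seen, Lpl stood at 749, Plin2 at 745, Fabp5 at 205, Fabp4 at 172 and Cd36 at 163. The highest group mean was 6.47 times the lowest for Fabp5, 4.45 times for Fabp4 and 2.68 times for Cd36. For the other 7 genes this ratio was 1.24 to 1.65.

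**Figure D1:**
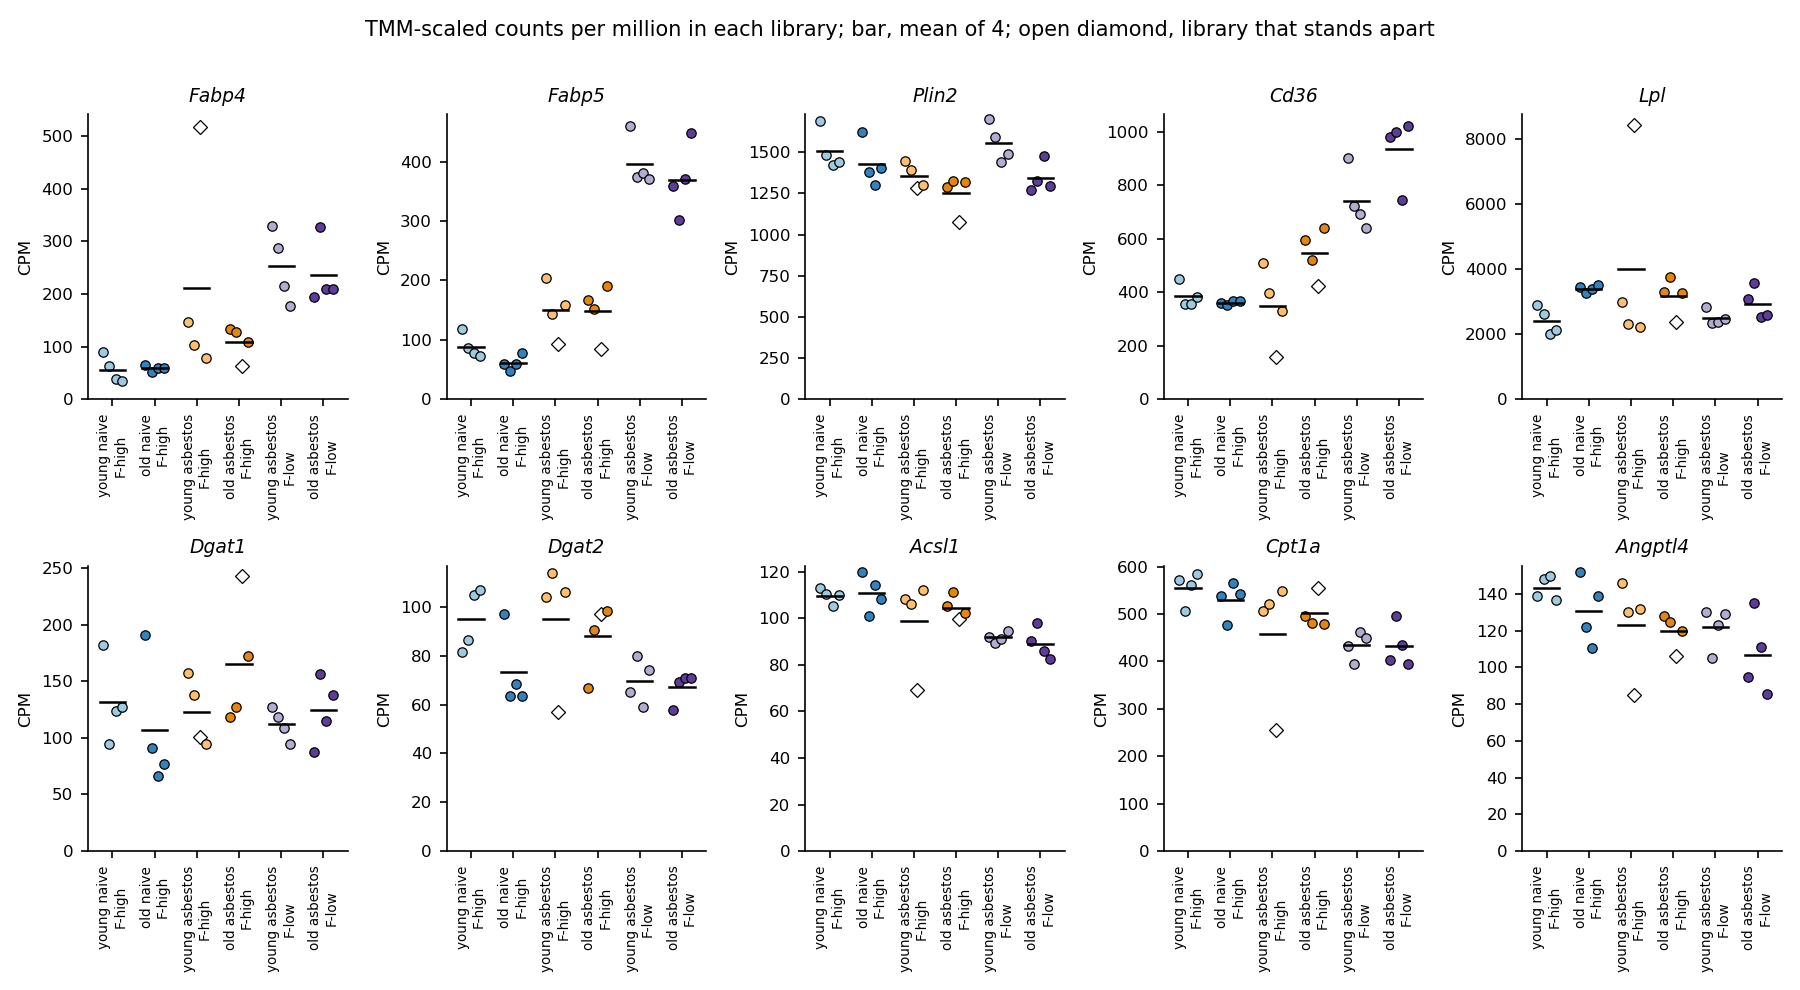
TMM-scaled CPM (y axis, linear, from 0) of each of the 10 genes in each of 24 libraries, by group (x axis); points are libraries, bars are means of 4, and open diamonds are the 2 libraries that stand apart. Fabp5 and Cd36 were highest in both Siglec F-low groups, while the open diamond of Lpl reached 8456 CPM.

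CD36, the scavenger receptor that takes up long-chain fatty acids and oxidised lipid, was highest in Siglec F-low cells (Cd36, ENSMUSG00000002944, chromosome 5, 17781690 to 17888801, minus strand). The Siglec F-low libraries of replicates 1 to 4 stood at 902, 724, 691 and 642 CPM in young and at 980.4, 998, 743 and 1022 in old mice. The Siglec F-high libraries after asbestos stood at 511, 398, 159 and 329 in young and at 596, 522, 425 and 639.8 in old mice, where the third of each set is the library that stands apart. The sorts did not overlap at either age.

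In the young mice Cd36 was higher in Siglec F-low cells by 1.08 ± 0.22 log2 (edgeR adjusted p 0.00432) with 24 libraries and by 0.84 ± 0.13 (adjusted p 0.000161) with 22. In the old mice it was higher by 0.78 ± 0.22 (edgeR adjusted p 0.0485) and 0.67 ± 0.13 (adjusted p 0.0015). The old call with 24 libraries was lost when any 1 of the 8 libraries compared was left out. With 22 libraries it was far from the threshold.

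Cd36 in naive cells was at 449, 357, 355 and 382 CPM in young mice and at 359.9, 352, 366 and 366 in old mice. After asbestos the old Siglec F-high libraries all lay above the old naive ones. The difference was 0.60 ± 0.22 (edgeR adjusted p 0.343) with 24 libraries and 0.70 ± 0.13 (adjusted p 0.00257) with 22. It was called with 22 libraries and by limma voom with sample quality weights on 24, and not by edgeR or DESeq2 on 24. In young mice it was -0.14 ± 0.22 (edgeR adjusted p 0.729) and 0.09 ± 0.13 (adjusted p 0.795). The interaction of asbestos with age was 0.61 ± 0.19 with 22 libraries and was not called (edgeR adjusted p 0.589), so a difference between the ages in this response was not shown. Among asbestos Siglec F-high cells, Cd36 was higher in old than in young mice by 0.52 ± 0.14 with 22 libraries (edgeR adjusted p 0.0263), and by 0.65 ± 0.22 with 24, which was not called (adjusted p 0.0798).

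Lipoprotein lipase, which frees fatty acids from triglyceride-rich lipoproteins, was the member with the highest counts (Lpl, ENSMUSG00000015568, chromosome 8, 68880491 to 68907448, plus strand). Naive libraries stood at 2903, 2631, 2025 and 2131 CPM in young and at 3451, 3268, 3409 and 3509 in old mice, without overlap. The difference between old and young was 0.49 ± 0.29 (edgeR adjusted p 0.811) with 24 libraries and 0.50 ± 0.12 (adjusted p 0.00826) with 22. Its size was the same in both fits, and the standard error was smaller in the second.

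In asbestos Siglec F-high cells 1 library set the direction of Lpl. The young libraries stood at 2994, 2326, 8456 and 2233 CPM, and the old ones at 3297, 3777, 2378 and 3266, the third of each being the library that stands apart. Old minus young was -0.33 ± 0.29 (edgeR adjusted p 0.484) with all of them and 0.46 ± 0.13 (adjusted p 0.0372) without that pair. In Siglec F-low cells Lpl was at 2363 to 2859.8 CPM in young and 2525 to 3574 in old mice, and the age difference there was 0.23 ± 0.12 with 22 libraries (edgeR adjusted p 0.269). Between sorts Lpl was not called. The difference was 0.00 ± 0.13 in young mice and -0.23 ± 0.13 in old mice with 22 libraries (edgeR adjusted p 0.998 and 0.28).

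Angptl4, a secreted inhibitor of lipoprotein lipase and a PPAR target, was not called in any of the 7 comparisons with 24 or 22 libraries (ENSMUSG00000002289, chromosome 17, 33773750 to 33781830, minus strand). It ranged from 85.1 to 152 CPM over all 24 libraries. Its largest difference with 22 libraries was between the old sorts, at -0.22 ± 0.12 log2 (edgeR adjusted p 0.259).

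Fabp5, the epidermal fatty acid-binding protein, rose from naive to asbestos Siglec F-high cells and was higher again in Siglec F-low cells (ENSMUSG00000027533). Young naive libraries stood at 118, 86.8, 77.5 and 73.5 CPM and old naive ones at 60, 48.5, 59.2 and 77.3. Asbestos Siglec F-high libraries stood at 205, 143, 93.5 and 159 in young and at 167, 152, 84.9 and 190.4 in old mice, with the third of each being the library that stands apart. Siglec F-low libraries stood at 459, 374, 381 and 371 in young and at 358, 302, 370.4 and 448 in old mice. Every Siglec F-low library lay above every Siglec F-high library, and apart from the pair that stands apart every asbestos library lay above every naive one.

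The sort difference of Fabp5 was called with 24 and with 22 libraries at both ages. It was 1.40 ± 0.23 (edgeR adjusted p 0.000499) and 1.23 ± 0.17 (adjusted p 2.51e-05) in young mice. In old mice it was 1.30 ± 0.23 (edgeR adjusted p 0.00118) and 1.12 ± 0.17 (adjusted p 7.45e-05). The response of Siglec F-high cells to asbestos was 1.29 ± 0.23 (edgeR adjusted p 0.00574) and 1.47 ± 0.16 (adjusted p 6.98e-06) in old mice. In young mice it was 0.76 ± 0.23 (edgeR adjusted p 0.0916) with 24 libraries, which was not called, and 0.92 ± 0.16 (adjusted p 0.00134) with 22. In naive cells Fabp5 was lower in old mice, at -0.53 ± 0.15 with 22 libraries (edgeR adjusted p 0.0324) and at -0.54 ± 0.23 with 24, which was not called (adjusted p 0.421). The naive groups overlapped in 1 old library at 77.3 CPM.

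Fabp4, the adipocyte-type binding protein that is also a PPARG target in macrophages, followed the same order over the groups (ENSMUSG00000062515). Young naive libraries stood at 90.8, 63.1, 39 and 34.2 CPM and old naive ones at 64.8, 51.4, 60.2 and 60. Asbestos Siglec F-high libraries stood at 147, 103, 517 and 79 in young and at 133, 128, 63.7 and 109.8 in old mice, and the values of 517 and 63.7 are from the pair that stands apart. Siglec F-low libraries stood at 329.7, 288, 215 and 178 in young and at 194, 328, 209 and 209.7 in old mice. Without that pair the sorts did not overlap at either age, and the young naive and young asbestos Siglec F-high groups overlapped between 79 and 90.8 CPM.

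With 24 libraries the young asbestos response of Fabp4 was 1.89 ± 0.44 (edgeR adjusted p 0.0245). That call was lost when young asbestos Siglec F-high replicate 3 alone was left out (0.95, edgeR adjusted p 0.0822), and when any 1 of young naive replicates 2, 3 and 4 was. With 22 libraries it was 0.94 ± 0.26 and was called (edgeR adjusted p 0.0382). The young sort difference was 0.26 ± 0.42 (edgeR adjusted p 0.762) with 24 libraries and 1.2 ± 0.27 (adjusted p 0.00402) with 22. In old mice the asbestos response was 0.90 ± 0.43 (edgeR adjusted p 0.578) and 1.07 ± 0.26 (adjusted p 0.0227). The old sort difference was 1.09 ± 0.43 (edgeR adjusted p 0.19) and 0.92 ± 0.27 (adjusted p 0.0253). Old and young did not differ beyond the spread in naive cells or in Siglec F-low cells, at 0.06 ± 0.25 and -0.10 ± 0.24 with 22 libraries (edgeR adjusted p 0.931 and 0.873).

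Without the pair that stands apart, the order of group means was the same for Fabp4 and Fabp5: both naive groups, then both asbestos Siglec F-high groups, then both Siglec F-low groups. Within each of these 3 steps the ages overlapped. For Cd36 the old asbestos Siglec F-high group, at 586 CPM, lay on its own between the young group of that sort, at 413, and the young Siglec F-low group, at 740. For Plin2, Lpl, Dgat1, Dgat2 and Angptl4 every neighbour in the order of means overlapped the next.

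Acsl1, the long-chain acyl-CoA synthetase that activates fatty acids, was a little lower in Siglec F-low cells (ENSMUSG00000018796, chromosome 8, 46471037 to 46536051, plus strand). Siglec F-low libraries stood at 92.1, 89.4, 91.1 and 94.5 CPM in young and at 90, 97.7, 86 and 82.5 in old mice. Siglec F-high libraries after asbestos stood at 108, 106, 69.3 and 112 in young and at 105, 111, 99.6 and 102 in old mice, with the third of each from the pair that stands apart. The old sorts did not overlap, and the young ones overlapped only through the library at 69.3 CPM. The differences with 22 libraries were -0.24 ± 0.06 (edgeR adjusted p 0.0155) in young and -0.26 ± 0.07 (adjusted p 0.0106) in old mice. With 24 they were -0.11 ± 0.11 and -0.23 ± 0.11 and were not called (edgeR adjusted p 0.632 and 0.34).

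Cpt1a encodes the enzyme that commits fatty acids to mitochondrial oxidation (ENSMUSG00000024900, chromosome 19, 3322334 to 3385733, plus strand). It stood at 432, 395, 462 and 449.8 CPM in young Siglec F-low libraries and at 506, 522, 256 and 549 in young asbestos Siglec F-high ones, where 256 is the library that stands apart. In old mice the sorts were at 402, 495, 434 and 395 and at 496, 482, 554 and 479.6. The young difference was -0.27 ± 0.08 with 22 libraries (edgeR adjusted p 0.0225) and -0.08 ± 0.16 with 24 (adjusted p 0.82). The old difference was -0.18 ± 0.08 with 22 libraries and was not called (edgeR adjusted p 0.163).

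Dgat1 and Dgat2 encode unrelated enzymes that add the last acyl chain of triglyceride. Dgat2 (ENSMUSG00000030747, chromosome 7, 99153658 to 99182719, minus strand) stood at 65.3, 80, 59 and 74.2 CPM in young Siglec F-low libraries and at 104, 114, 57 and 106 in young asbestos Siglec F-high ones, where 57 is the library that stands apart. The sort difference was -0.63 ± 0.15 with 22 libraries (edgeR adjusted p 0.00485) and -0.45 ± 0.19 with 24, which was not called (adjusted p 0.165). In old mice it was -0.35 ± 0.15 with 22 libraries (edgeR adjusted p 0.146). Dgat1 (ENSMUSG00000022555, chromosome 15, 76502015 to 76511953, minus strand) ranged from 66.7 to 243 CPM and was not called in any comparison with 24 or 22 libraries. Its libraries spread widely within groups, from 66.7 to 191 CPM in old naive cells alone.

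Plin2 encodes perilipin 2, the main droplet coat protein of cells other than adipocytes (ENSMUSG00000028494, chromosome 4, 86648386 to 86670060, minus strand). It ranged from 1078 to 1699.8 CPM over all libraries, and the lowest of these is from the pair that stands apart. Its sort difference with 22 libraries was 0.17 ± 0.08 in young and 0.03 ± 0.08 in old mice (edgeR adjusted p 0.206 and 0.886). The asbestos response was -0.13 ± 0.08 in young and -0.12 ± 0.08 in old mice (edgeR adjusted p 0.45 and 0.48). The largest age difference was in Siglec F-low cells, at -0.21 ± 0.08 (edgeR adjusted p 0.104).

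**Figure D2:**
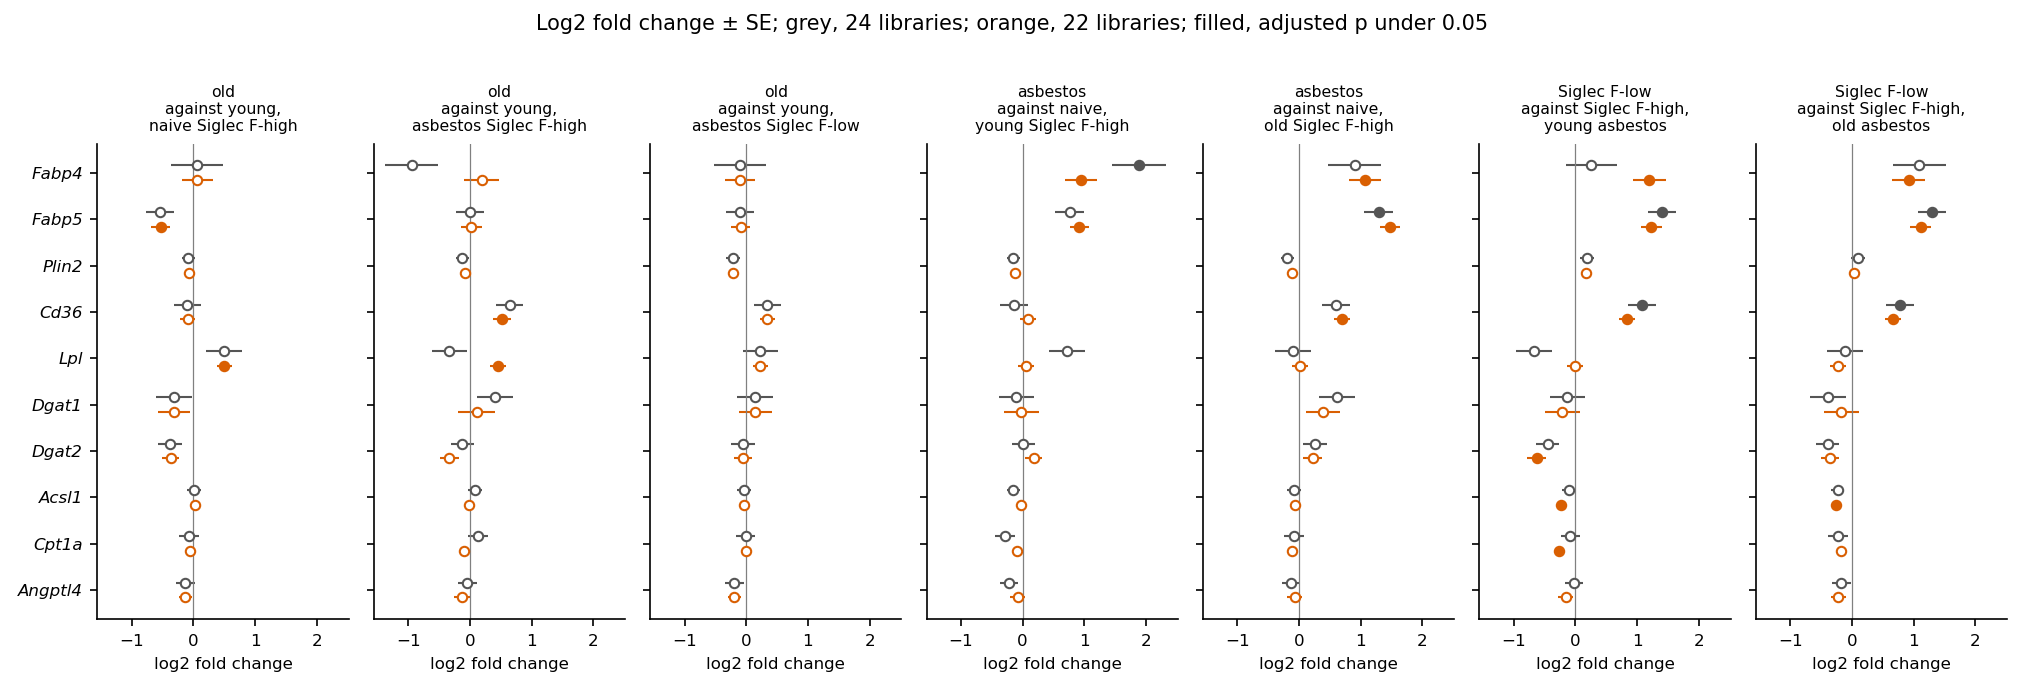
Log2 fold change (x axis, in log2 units) of each gene (y axis) in the 7 comparisons; points are estimates, bars are ± SE, grey is 24 libraries, orange is 22, and filled points have an adjusted p under 0.05. Fabp5 is filled in both colours in both sort comparisons, and Lpl changes side between colours in old against young asbestos Siglec F-high cells.

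Counted over the 10 genes, most calls were in the comparison of sorts. In young mice 2 of 10 were called with 24 libraries, both higher, where 4.99% of all genes were called. With 22 libraries 3 were higher (Fabp4, Fabp5 and Cd36) and 3 lower (Dgat2, Acsl1 and Cpt1a), where 12.0% of all genes were called, 7.42% higher and 4.6% lower. In old mice 2 of 10 were called with 24 libraries, both higher, where 4.3% of all genes were called. With 22 libraries 3 were higher and 1 lower, where 11.6% of all genes were called, 6.3% higher and 5.28% lower. The median log2 fold change of the 10 genes with 22 libraries was -0.08 in young and -0.17 in old mice, beside -0.002 and -0.014 over all genes tested. CPM did not overlap between the old sorts, with 24 libraries, in 3 genes that were higher, where 9.39% of all genes were, and in 1 that was lower, where 6.95% were.

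The asbestos response of Siglec F-high cells was called for 1 of 10 genes in young mice with 24 libraries, where 1.9% of all genes were called, and for 2 with 22, where 5.06% were. In old mice 1 of 10 was called with 24 libraries, where 0.78% of all genes were called, and 3 with 22, where 4.12% were. All of these were higher after asbestos, and all were Fabp4, Fabp5 or Cd36. The asbestos response and the sort difference share the asbestos Siglec F-high libraries, so their values are not independent of each other.

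Old against young was called for 0 of 10 genes with 24 libraries in each of the 3 kinds of cell. In naive cells edgeR called 2.03% of all genes and found 1 of the 10 at an unadjusted p under 0.05. DESeq2 called 0 of the 10 there and limma voom with sample quality weights 2. In asbestos Siglec F-high cells edgeR called 4.76% of all genes and the unadjusted count was 2, while DESeq2 called 1 of the 10 and limma voom 3. In Siglec F-low cells edgeR called 1.29% of all genes and the unadjusted count was 0, while DESeq2 called 0 of the 10 and limma voom 1. The shares of all genes called by DESeq2 and limma voom are not given here, so their counts cannot be set against them. With 22 libraries edgeR called 2 genes in naive cells, where 8.03% of all were called, 2 in asbestos Siglec F-high cells, where 7.32% were, and 0 in Siglec F-low cells, where 7.21% were; of the last, 2 had an unadjusted p under 0.05.

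Neither interaction with age was called for any of the 10 genes by edgeR, DESeq2 or limma voom, where edgeR called 0.0147% of all genes with 22 libraries and 0 genes with 24. For the asbestos response, edgeR with 24 libraries found 1 gene and with 22 libraries 2 genes at an unadjusted p under 0.05, and for the sort difference it found 0 in both fits. With 22 libraries the sort difference in old mice minus that in young mice was -0.11 ± 0.23 for Fabp5, -0.28 ± 0.37 for Fabp4 and -0.17 ± 0.19 for Cd36 (edgeR adjusted p 0.955, 0.939 and 0.927).

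Over the 22 libraries, which share the group differences above, log2 CPM of Fabp4 correlated with that of Fabp5 at a Pearson r of 0.926 and with that of Cd36 at 0.898, and Fabp5 with Cd36 at 0.894. After the group means were taken off, these were 0.468, 0.607 and 0.540. For Fabp4 and Lpl r was 0.105 over the libraries and 0.808 within groups. Acsl1 and Cpt1a correlated at 0.885 and 0.624. Outside the 10 genes, the pattern most like that of Fabp5 over the 22 libraries was that of Acp5 (r 0.990), followed by Chchd10 (0.982) and Lap3 (0.978). Most like Fabp4 were Ddost (0.955), Lgmn (0.949) and Acp5 (0.947). Most like Cd36 were Lrpap1 (0.961), Sc5d (0.955) and Treml2 (0.951).

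Another 80 listed genes of the same pathway were counted beside them, of which 68 passed the filter. Between the young sorts 4 were higher and 3 lower in Siglec F-low cells with 24 libraries, where 4.99% of all genes were called. With 22 libraries 11 were higher and 4 lower, against 7.42% and 4.6% of all genes. Between the old sorts 3 were higher and 1 lower with 24 libraries, where 4.3% of all genes were called. With 22 libraries 9 were higher and 6 lower, against 6.3% and 5.28%. Of the 9 uptake genes tested, 3 were higher and 0 lower in young and 5 and 0 in old Siglec F-low cells with 22 libraries, and 3 and 0 at both ages with 24.

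Msr1, the class A scavenger receptor, stood at 111, 120.3, 104 and 86.7 CPM in young and at 88.3, 61.9, 85.4 and 108 in old Siglec F-low libraries. It stood at 13.9 to 43.9 CPM in asbestos Siglec F-high libraries and at 6.12 to 20.1 in naive ones. Its sort difference with 22 libraries was 1.51 ± 0.27 (edgeR adjusted p 0.000636) in young and 1.44 ± 0.28 (adjusted p 0.00112) in old mice. Slc27a1, the fatty acid transport protein FATP1, was higher in Siglec F-low cells by 0.63 ± 0.11 and 0.65 ± 0.11 with 22 libraries (edgeR adjusted p 0.000306 and 0.000223). Acsl3, another acyl-CoA synthetase, was higher by 0.87 ± 0.17 in young mice with 22 libraries (edgeR adjusted p 0.00142), in the opposite direction to Acsl1. In old mice Acsl3 was higher by 0.57 with 22 libraries (edgeR adjusted p 0.0306) and was not called with 24 (adjusted p 0.114). Fabp7 was also higher in Siglec F-low cells with 22 libraries, by 2.58 in young and 3.08 in old mice (edgeR adjusted p 0.00879 and 0.00364). In old Siglec F-low cells it was at no more than 2.92 CPM.

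With 22 libraries Cidec, Lpin1 and Hsd17b4 were lower in Siglec F-low cells at both ages. With 24, Cidec was called at both ages, Lpin1 in young mice (edgeR adjusted p 0.03) and not in old mice (adjusted p 0.0606), and Hsd17b4 at neither age (adjusted p 0.127 and 0.0662). Cidec, a protein of large lipid droplets, stood at 154, 189, 163 and 205 CPM in young and at 162, 283, 182 and 136 in old Siglec F-low libraries, against 256 to 406 in asbestos Siglec F-high libraries. Its sort difference with 22 libraries was -1.0 ± 0.17 (edgeR adjusted p 0.000265) in young and -0.74 ± 0.17 (adjusted p 0.00423) in old mice. Lpin1, a phosphatidate phosphatase of triglyceride synthesis, was at -0.54 ± 0.13 and -0.49 ± 0.13 with 22 libraries (edgeR adjusted p 0.00704 and 0.014). Hsd17b4, an enzyme of peroxisomal oxidation, was at -0.32 ± 0.07 and -0.43 ± 0.07 in the same fit (edgeR adjusted p 0.00387 and 0.00026). G0s2, an inhibitor of triglyceride lipolysis, was lower in young Siglec F-low cells, at -1.22 ± 0.31 with 24 libraries (edgeR adjusted p 0.0241) and -0.81 with 22 (adjusted p 0.0214). In old mice G0s2 was not called, at -0.18 with 24 libraries and -0.33 with 22 (edgeR adjusted p 0.903 and 0.455). Ppargc1b, a coactivator of mitochondrial oxidation genes, was higher in old Siglec F-low cells by 0.54 ± 0.12 with 22 libraries (edgeR adjusted p 0.00339).

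**Figure D3:**
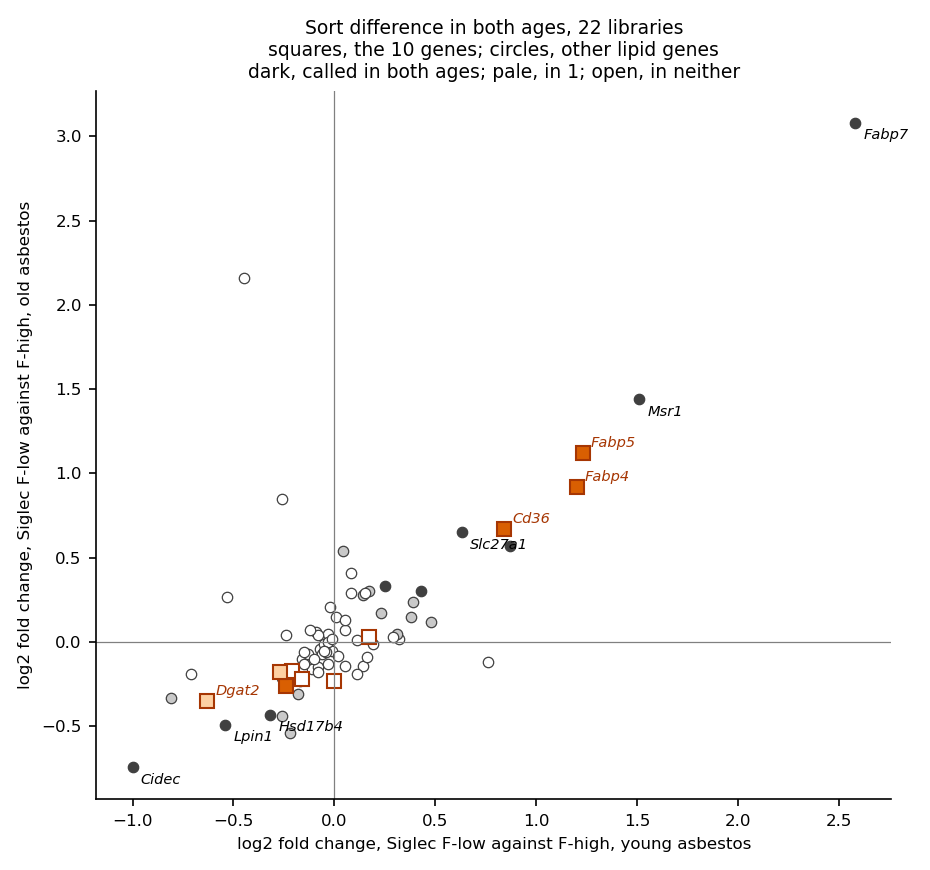
Log2 fold change of Siglec F-low against Siglec F-high cells after asbestos in young (x axis) and old mice (y axis) with 22 libraries; squares are the 10 genes, circles the other lipid genes tested, dark fill is called at both ages, pale at 1, open at neither. Fabp4, Fabp5 and Cd36 lie with Msr1 and Slc27a1 at the upper right, and Cidec and Lpin1 at the lower left.

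After asbestos, Siglec F-high cells of young mice had 3 of the 68 genes higher and 0 lower with 24 libraries, and 8 and 1 with 22, where 1.9% and 5.06% of all genes were called. In old mice 1 was higher and 0 lower with 24 libraries, and 5 and 1 with 22, where 0.78% and 4.12% of all genes were called. Msr1 rose by 1.69 ± 0.28 in young and 1.30 ± 0.29 in old mice with 22 libraries (edgeR adjusted p 0.000827 and 0.0102). Nr1h3, the sterol sensor LXR alpha, rose by 0.47 ± 0.10 in young mice with 22 libraries (edgeR adjusted p 0.00717). Mgll, a monoglyceride lipase, rose in old mice by 0.53 ± 0.13 with 24 libraries (edgeR adjusted p 0.0496) and 0.57 ± 0.10 with 22 (adjusted p 0.00165). With 22 libraries Abhd5, the activator of the main triglyceride lipase, rose in young mice by 0.50 ± 0.09 (edgeR adjusted p 0.00101) and Ppargc1b in old mice by 0.67 ± 0.12 (adjusted p 0.00186). The call of Ppargc1b in young mice with 24 libraries, at 1.44 ± 0.37 (edgeR adjusted p 0.0437), rested on a mean of 38.4 ± 38 CPM (SD, n = 4) with 95.3 CPM in the library that stands apart. Lpin1 fell in young mice, at -0.49 ± 0.13 with 22 libraries (edgeR adjusted p 0.0295), and Lipe, the hormone-sensitive lipase, in old mice in the same fit, at -0.57 ± 0.16 (adjusted p 0.049).

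With age, 2 of the 68 genes were higher and 0 lower with 24 libraries in each kind of cell, where 2.03%, 4.76% and 1.29% of all genes were called in naive, asbestos Siglec F-high and Siglec F-low cells. With 22 libraries 5 were higher and 1 lower in naive cells, 5 and 0 in asbestos Siglec F-high cells and 5 and 2 in Siglec F-low cells, where 8.03%, 7.32% and 7.21% of all genes were. Pdk4, a kinase that restrains glucose oxidation when fatty acids are in use, was called with 24 libraries in naive and in asbestos Siglec F-high cells. Its means were 94 ± 31.8 and 26.6 ± 2.11 CPM (SD, n = 4) in old and young naive cells, a difference of 1.82 ± 0.33 log2 with 24 libraries (edgeR adjusted p 0.00232). In asbestos Siglec F-high cells it was higher in old mice by 1.73 ± 0.33 with 24 libraries (edgeR adjusted p 0.00354). Plin4, another perilipin, was called with 24 libraries in all 3 kinds of cell, and with 22 libraries not in asbestos Siglec F-high cells. It was at most 9.78 CPM in old and at most 0.446 in young naive libraries. In old Siglec F-low cells it stood at 9.27, 101, 3.55 and 6.02 CPM against at most 0.809 in young ones, a difference of 6.02 ± 1.02 with 24 libraries (edgeR adjusted p 0.00224), and replicate 2 lay far above the rest. Klf4, a transcription factor that PPAR ligands can induce, was higher in old Siglec F-low cells by 0.50 ± 0.12 with 24 libraries (edgeR adjusted p 0.0435). Pparg itself was lower there, at -0.32 ± 0.09 with 22 libraries (edgeR adjusted p 0.033), as was Hsd17b4, at -0.33 ± 0.07 (adjusted p 0.0029). Mgll was higher with age by 0.50 ± 0.11 in asbestos Siglec F-high cells and by 0.36 ± 0.09 in Siglec F-low cells with 22 libraries (edgeR adjusted p 0.00533 and 0.0213). In that fit Lipa, the lysosomal acid lipase, was higher in old naive cells by 0.55 ± 0.10 (edgeR adjusted p 0.001) and Acsl4 in old asbestos Siglec F-high cells by 0.48 ± 0.10 (adjusted p 0.00344). Lpin1 was lower in old naive cells in the same fit, at -0.40 ± 0.12 (edgeR adjusted p 0.0402).

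**Figure D4:**
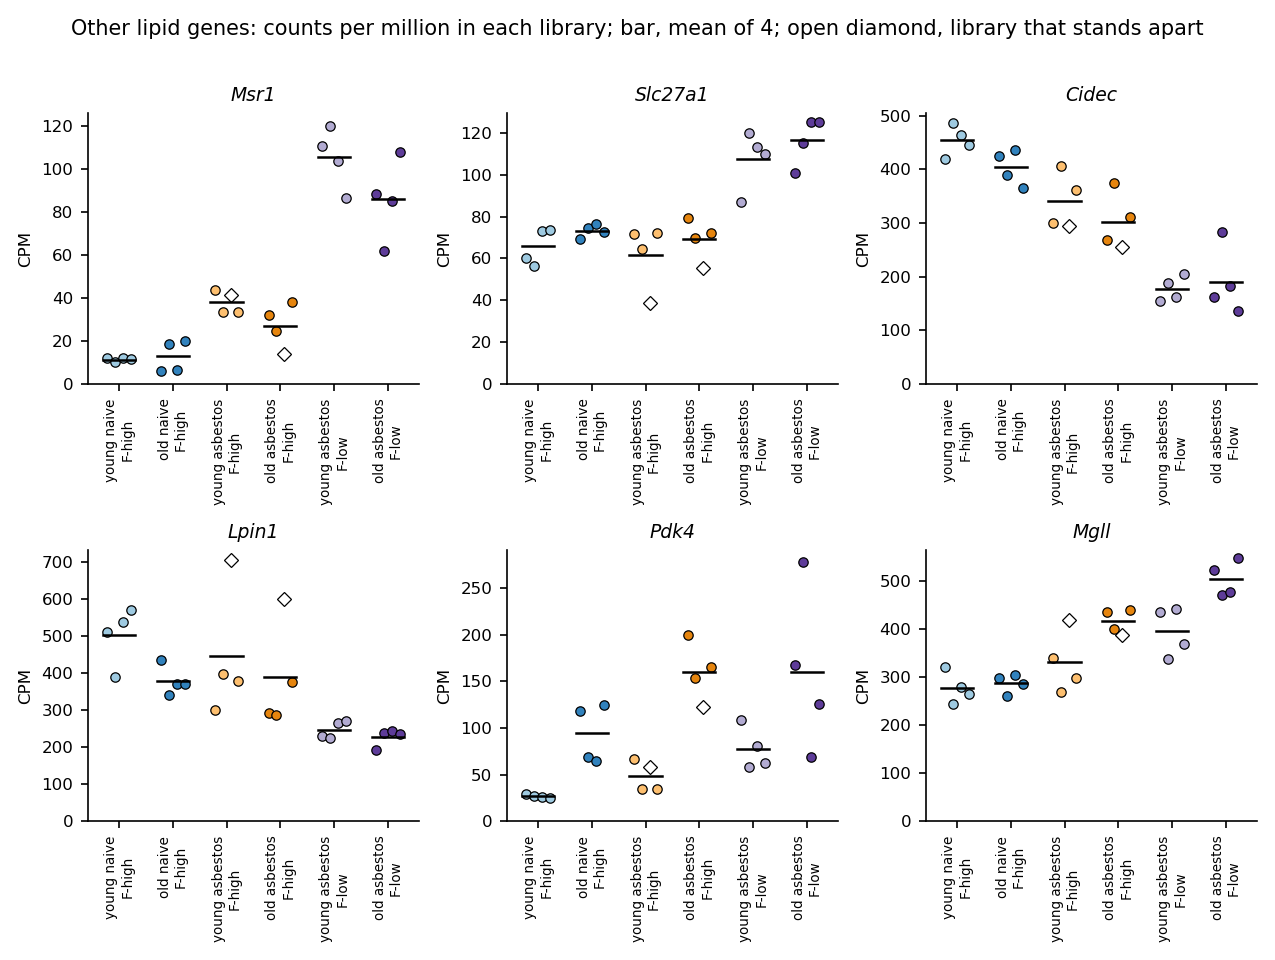
TMM-scaled CPM (y axis, linear, from 0) of 6 other lipid genes in each of 24 libraries, by group (x axis); points are libraries, bars are means of 4, and open diamonds are the 2 libraries that stand apart. Msr1 and Slc27a1 were highest and Cidec and Lpin1 lowest in Siglec F-low cells, and Pdk4 was higher in old than in young naive and asbestos Siglec F-high cells.

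Markers of other cells moved with the Siglec F sort as well. With 22 libraries 12.0% of all genes were called between the young sorts and 11.6% between the old ones. Of 8 interstitial macrophage markers, 4 were higher and 0 lower in young Siglec F-low cells with 22 libraries, and 5 and 0 in old ones. Their summed level was 2169 to 2373 CPM in young Siglec F-high and 2313 to 2632 in young Siglec F-low libraries, and 1972 to 2108 and 2126 to 2353 in old ones. Most of this was Mrc1, at 1211 to 2510.4 CPM over the 24 libraries. C1qa stood at no more than 7.26 CPM in any asbestos Siglec F-high library and at 33 to 65 in the Siglec F-low ones, while Folr2 and Lyve1 stayed at or under 3.58 CPM in every library. Of 8 monocyte markers 2 were higher in young and 3 in old Siglec F-low cells, with sums of 2831 to 3337 against 3856 to 4311 and of 2445 to 2829 against 4839.5 to 6567 CPM, from Siglec F-high to Siglec F-low. Fn1 made up most of these sums in Siglec F-low cells, at 3104 to 3733 CPM in young and 4073 to 5734 in old libraries. The 12 alveolar macrophage markers include Siglecf, the gene of the sort marker, whose direction is not independent of the sort. Of the 12, 5 were lower and 2 higher in young Siglec F-low cells, and 6 and 1 in old ones. Their summed level, most of it Chil3, was nevertheless higher in Siglec F-low cells without overlap. From Siglec F-high to Siglec F-low it was 24295 to 28200.1 against 36738 to 48262 CPM in young mice. In old mice it was 36759 to 41361 against 52925 to 67316, both without the pair that stands apart. The part of these shifts in the differences of Fabp4, Fabp5 and Cd36 was not tested.

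Fabp4 and Cd36 are also abundant in adipocytes and endothelium, and Lpl in adipocytes. The adipocyte markers Adipoq and Lep were at 0 in all 24 libraries, and Cfd was at most 0.134 CPM. The summed level of the 6 adipocyte markers, nearly all of it Cidec, did not overlap between the young sorts, at 156 to 207 CPM in Siglec F-low against 302 to 408 in Siglec F-high cells without the library that stands apart, while in old mice the ranges, 138 to 312 against 273 to 381, overlapped. The 10 endothelial markers summed to 172 to 186 CPM in young asbestos Siglec F-high cells and to 241 to 274 in young Siglec F-low cells, and in old mice to 150 to 212 and 193 to 325. Vwf made up most of this, at 232 to 266 CPM in young Siglec F-low cells. Pecam1 was at most 4.88 and Cdh5 at most 7.35 CPM in any library.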

How the data were processed

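The authors deposited 1 table of raw counts per Ensembl mouse gene for 24 libraries, as unscaled whole numbers. Per the submitters' processing notes, bcl2fastq 2.19.1, FastQC, Trimmomatic 0.36, STAR 2.6.0, HTSeq 0.11.2 and the build mm10 were used. The annotation release and strand setting are not given in the sources used here. Without the strand setting, reads of Acsl1 and of the overlapping opposite-strand model Gm45244 cannot be told apart.

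Of 43430 gene IDs, 42462 had a symbol in GENCODE M21. The filter filterByExpr (by group, minimum count 10, minimum total 15) kept 13467 genes with 24 libraries and 13629 with 22. TMM-scaled counts were fitted with edgeR 4.0.16 (R 4.3.3) with a term for each of the 6 groups, and 7 comparisons and 2 interactions were tested with its quasi-likelihood F statistic. SE is the absolute log2 fold change divided by the square root of F. Alternatives were DESeq2 1.42.0, limma 3.58.1 voom with sample quality weights, RLE factors, no filter, only the groups compared, the replicate number as a block, and leaving out each library. The test was checked on simulated counts of 24 libraries for the young sort comparison. It recovered 43.9% of the simulated 2-fold changes and 74.2% of the 4-fold ones, and 4.17% of its calls were false. The fit with 22 libraries and the other comparisons were not tested on such counts, so these shares do not cover their calls. Correlations used log2 CPM with a prior count of 2.

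Replicate numbers 1 to 4 recur in every group, and the labels do not say what they mark. Deviations of same-numbered libraries from their group means correlated above 0.1 for every number only between the old sorts with 22 libraries (0.161, 0.185 and 0.216). Those numbers were therefore taken to pair libraries, from the data and not from the labels. Except where a block is named, the values given are from fits without a term for the number, so they do not use this pairing. The fits with a block put it on the number across all 6 groups, and no fit paired only the old sorts.

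All 10 members are named. The rule for the other pathway genes took up to 3 called genes of smallest p, higher and lower, per comparison. Genes most like a member were chosen by the highest Pearson correlation over 22 libraries. The members, the pathway and marker lists and the set of 22 libraries were chosen with earlier results of these data known.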

Additional observations from a re-analysis of the deposited data

Results flagged for a closer look

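In each of 60 sets of 4 libraries (10 genes in 6 groups) the highest or lowest value was tested for standing apart by Dixon's ratio of its gap to the whole range. Chance gives about 1 such value in 20 sets, and 10 were found.

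Of these, 5 were in the pair of libraries described above as standing apart. In young asbestos Siglec F-high replicate 3, Lpl was at 8456 CPM (the others at 2233 to 2994) and Fabp4 at 517 (79 to 147), both high. In the same library Acsl1 was at 69.3 CPM (the others at 106 to 112) and Cpt1a at 256 (506 to 549), both low. In old asbestos Siglec F-high replicate 3, Plin2 was at 1078 CPM (the others at 1288 to 1325).

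The remaining 5 were in libraries that resembled their groups over all genes. Fabp4 was at 328 CPM in old asbestos Siglec F-low replicate 2 (the others at 194 to 209.7). Fabp5 was at 459 CPM in young asbestos Siglec F-low replicate 1 (the others at 371 to 381). Cd36 was at 743 CPM in old asbestos Siglec F-low replicate 3 (the others at 980.4 to 1022). Dgat2 was at 97.2 CPM in old naive Siglec F-high replicate 1 (the others at 63.5 to 68.6) and at 58 in old asbestos Siglec F-low replicate 1 (the others at 69.1 to 71).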

How the results depend on the processing

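The sort difference of Fabp5 at both ages and its asbestos response in old mice were called under every alternative run. The number of the 10 genes called changed most with the 22 libraries and with limma voom. The share of all genes called is given here only for edgeR without a block, with 24 and with 22 libraries. Counts under the other settings therefore cannot be set against such a share and are not a result about these genes. For old against young naive cells, 0 of 10 genes were called with 24 libraries, 2 with 22, 2 with limma voom and 1 with only the groups compared. For asbestos Siglec F-high cells, old against young gave 0 with 24 libraries, 2 with 22, 1 with DESeq2 and 3 with limma voom. Lpl reversed there, from -0.33 to 0.46 with 22 libraries and 0.46 with limma voom. For Siglec F-low cells, old against young gave 0 with 24 libraries and 1 with limma voom. The young asbestos response gave 1 gene with 24 libraries, 2 with 22, DESeq2 or limma voom and 0 with only the groups compared. The old one gave 1 with 24 libraries and 3 with 22 or limma voom. The young sort comparison gave 2 with 24 libraries, 6 with 22 or limma voom and 1 with only the groups compared. The old one gave 2 with 24 libraries, 4 with 22, 5 with limma voom, 3 with only the groups compared and 1 without a filter. Leaving out single libraries gave 0 to 1, 0 to 1, 2 to 5 and 1 to 1 genes for old against young asbestos Siglec F-high, the young asbestos response, the young and the old sorts.

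With the replicate number as a block, 24 libraries gave the same calls as without it. The block with 22 libraries gave 2, 2, 1, 2, 3, 6 and 4 genes in the 7 comparisons in the order above, and Lpl at 0.47. Against 22 libraries without the block it changed 1 call, that of Cd36 in old against young Siglec F-low cells (0.35, edgeR adjusted p 0.0359, against 0.0918). Between the young sorts the same-number correlations were 0.329, 0.0877 and 0.249 with 22 libraries, and those of different numbers were at most 0.0857.

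The call for Cd36 between the old sorts was also lost without a filter (edgeR adjusted p 0.0689), and with single libraries left out its adjusted p was 0.05 to 0.16. The cause of these changes was not tested. Of 1600 values of single genes under alternatives, 1533 were counted as unchanged, 49 were newly called, 15 lost a call and 3 were counted as reversed. The unchanged ones kept their side of the threshold but not always their direction. Among values not called in either fit, Fabp4 in old against young asbestos Siglec F-high cells was at -0.94 with 24 libraries and 0.19 with 22. Cd36 in the young asbestos response was at -0.14 and 0.09. The median SE over all genes of the sort difference in young mice was 0.237 with 24 libraries and 0.137 with 22. It was 0.116 with limma voom on 24. This spread limits the differences that could be called.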

Other observations

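Old asbestos Siglec F-low replicate 2, with its high Fabp4, also had the highest values of its group for some other lipid genes. It did not for Plin2, at 1328 CPM in this library and 1476 in replicate 3. Nor did it for Cd36, at 998 against 1022 in replicate 4, or Dgat2, at 69.1 against 71 in replicate 3. For Fabp5 this library had the lowest value of its group, at 302 CPM against 358, 370.4 and 448. Plin4 was at 101 CPM in replicate 2 and at 3.55 to 9.27 in the other libraries of the group. Plin1, the perilipin of adipocytes, which was chosen after its values were seen, was at 28.5 CPM against 1.4 to 2.9. Cidec was at 283 CPM against 136 to 182, and Pdk4 at 278 against 68.5 to 168. Adipoq and Lep were at 0 in this library too.

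Markers of further cell types were counted between the sorts with 22 libraries, where 12.0% of all genes were called in young and 11.6% in old mice. Of 6 neutrophil markers tested, 3 were higher and 1 lower in young Siglec F-low cells, and 1 and 0 in old ones. Of 10 alveolar epithelial markers, 1 was lower in young and 2 in old Siglec F-low cells, with none higher. Of 8 T cell markers, 1 was higher at each age. Of the eosinophil, B cell and dendritic cell markers edgeR called 0 at either age. The eosinophil gene Epx was at most 0.181 CPM in any library.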
